A study of Mus musculus with 27 samples.

Results

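The genes described here are 10 regulators of oocyte maturation: Mos, Wee1, Wee2, Cdc25b, Ccnb1, Ccnb2, Ccnb3, Aurkc, Bub1b and Fbxo43. They were chosen by symbol, with earlier results of these data known, as 10 of the 20847 genes listed in the study's deposited count tables. All 10 were listed and tested in both oocyte tables, and the round spermatid table held all 10 as well. The stem cell table held 6 of them.

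The study sequenced RNA from mouse cells that lack Mettl3, the methyltransferase that writes N6-methyladenosine (m6A) into mRNA, or lack Ythdf proteins, which bind that mark. There were 27 libraries in 12 groups. Germinal vesicle (GV) oocytes, which are arrested in prophase of meiosis I, came from Mettl3f/f Zp3-Cre+ females (3 libraries, called Mettl3 cKO here) and from Mettl3f/f Zp3-Cre- control females (4 libraries). Both genotypes carry the floxed Mettl3 allele on a mixed BDF1, C57BL/6 and Zp3-Cre strain background, and the Zp3 promoter drives Cre in growing oocytes. Post-GV oocytes, beyond the germinal vesicle stage, came from Ythdf2-/- females (2 libraries) and from Ythdf2+/- females (3 libraries), so the comparison group there lacks 1 copy of the gene. The post-GV strain background was CB6F1 crossed to C57BL/6. Each oocyte library was prepared with the SMART-seq2 method from the oocytes of a single mouse, lysed together. Round spermatids were sorted by flow cytometry and gave 2 Ythdf2-/- libraries and 1 Ythdf2+/+ library after ribosomal RNA removal. For KH2 embryonic stem cells, poly(A) RNA was read in 2 libraries per genotype: Mettl3-/-, Ythdf1-/-, Ythdf2-/-, Ythdf3-/-, Ythdf1-/-Ythdf2-/-Ythdf3-/- and wild type. The labels give no age for the mice.

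A fully grown mouse oocyte is held in prophase because cyclic AMP keeps Cdk1, the kinase of maturation promoting factor, in an inhibited state. The kinases Wee1 and Wee2 place inhibitory phosphates on Cdk1, the phosphatase Cdc25b removes them, and B-type cyclins are its activating partners. After the first division the egg arrests again at metaphase II, where the Mos kinase pathway and the anaphase inhibitor Fbxo43 keep the anaphase promoting complex (APC/C) from destroying cyclin B. Transcription is largely silent in these cells, so mRNA storage, translation and decay set much of what a maturing oocyte contains.

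Library totals ran from 6484397 to 18181397 assigned counts in GV oocytes and from 12409822 to 25015081 in post-GV oocytes. Levels are counts per 1000000 counts of a library (CPM) after TMM scaling of library sizes. A gene is called where edgeR's quasi-likelihood test, adjusted by Benjamini-Hochberg over all tested genes, gave a p under 0.05, and changes are log2 ± standard error. All 10 oocyte marker genes were listed in both oocyte tables. Summed, they reached 24963 to 32942 CPM in Mettl3 cKO and 15900 to 32380 CPM in control GV oocytes, and 7748 to 8735 CPM in Ythdf2-/- and 2630 to 5815 CPM in Ythdf2+/- post-GV oocytes. All 12 granulosa and cumulus cell markers were listed in GV oocytes, none at 0 throughout either group. Their sum was 22.1, 192 and 54.4 CPM in the Mettl3 cKO libraries against 281, 742, 1916 and 303 CPM in the controls. In post-GV oocytes 11 of these 12 markers were listed, and their sum was 168 and 82.1 CPM in Ythdf2-/- libraries against 386, 508 and 124 CPM in Ythdf2+/- libraries. The part of these marker differences in the results that follow was not tested. In such bulk libraries fewer cells of a type and less RNA per cell cannot be told apart.

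Control GV library 3, which had the highest granulosa sum, correlated least with its own group, at a median Spearman coefficient of 0.924. Control 2 had the next highest granulosa sum, and the called members are also given without these 2 libraries. The remaining controls, at granulosa sums of 281 and 303 CPM, still lay above every Mettl3 cKO library (at most 192 CPM). Those fits therefore do not separate the marker difference from genotype. For the post-GV set the authors deposited batch-adjusted values. Their adjustment shifted genes alike in KO 1, heterozygous 1 and heterozygous 2 (batch 1 here). It shifted them the opposite way in KO 2 and heterozygous 3 (batch 2). The labels do not name these batches, so what sets them apart is unknown. Both batches hold both genotypes, and the fit included the batch as a term. Mettl3 stood at 3.47, 1.35 and 0.901 CPM in Mettl3 cKO libraries against 41.7, 28.1, 13.2 and 25.8 CPM in controls (-3.77 ± 0.57, adjusted p = 0.00182 by edgeR). Ythdf2 stood at 197 and 156 CPM in Ythdf2-/- against 90.1, 73.2 and 132 CPM in Ythdf2+/- post-GV oocytes (0.84 ± 0.33, adjusted p = 0.211 by edgeR). The labels do not say which part of Ythdf2 was deleted, so a count over the whole gene checks nothing.

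In post-GV oocytes lacking Ythdf2, Mos and Bub1b rose and the other 8 genes were not called. Mos, the germ cell kinase that starts the MAP kinase cascade of metaphase II arrest, was 22.6-fold higher, and Bub1b, which encodes the spindle checkpoint protein BubR1, was 3.84-fold higher. The 2 of 10 called genes stand beside 1.85% of the 13910 tested genes called in either direction and 1.38% called higher. The same 2 genes had libraries that did not overlap between genotypes, as did 21.2% of all tested genes. The members were chosen with earlier results of these data known. Such shares therefore do not test them against other genes, here or in GV oocytes.

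Mos stood at 882 and 661 CPM in the Ythdf2-/- libraries, against 55.0, 22.0 and 29.6 CPM in the Ythdf2+/- libraries. Both knockout libraries lay far above every heterozygous library, and the lowest of them was 12.02-fold above the highest of these. The change was 4.50 ± 0.39 (adjusted p = 5.81e-05 by edgeR), which put Mos at rank 3 of all tested genes by p. Within batch 1 the log2 ratio of knockout to heterozygous was 4.64, and within batch 2 it was 4.46. The authors' deposited table gives Mos a log2 change of 4.42 with an adjusted p of 2.09e-22. With no batch term the size was 4.44 but the adjusted p was 0.512 by edgeR, and no gene of the table was called in that fit. Without heterozygous library 3, which correlated least with its group, the change was 4.51. KO 2 was then alone in its batch, so this value rests on KO 1 against heterozygous 1 and 2.

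Mos is a gene with 1 exon (GRCm38, chr4:3870657-3872105, minus strand, ENSMUSG00000078365.5). Its annotated transcript of 1449 bases has a 3′ untranslated region (3′UTR) of 126 bases, against a median of 978 bases over 13555 genes. The pentamer GGACT, the most typical sequence at which Mettl3 places m6A, occurred in the Mos transcript at 2 places, both in the coding sequence. They are shown because Mos changed most of the 10 genes and because a reader of m6A was removed, with the pentamer in capitals. Methylation itself was not measured in these files.
Mos, transcript base 348: tcgccatcggtGGACTcgcggtcctgc
Mos, transcript base 433: ctcgggctcccGGACTgccacgccggc

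Bub1b, whose product delays anaphase until chromosomes are attached, stood at 1855 and 2543 CPM in Ythdf2-/- libraries against 726, 345 and 578 CPM in Ythdf2+/- libraries. The groups did not overlap, with 2.55-fold between the lowest knockout and the highest heterozygous library. The change was 1.94 ± 0.36 (adjusted p = 0.0128 by edgeR), and the within-batch ratios were 1.89 and 2.14. Without heterozygous library 3 the change was 1.79, which as for Mos rests on KO 1 against heterozygous 1 and 2. The authors' deposited table gives 1.86 with an adjusted p of 0.000297. With no batch term the change was 2.00, no longer called (adjusted p = 0.664 by edgeR).

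The Bub1b gene (chr2:118598211-118641591, plus strand, ENSMUSG00000040084.9) has GGACT at 5 places, all in its coding sequence. Its short 3′UTR of 272 bases holds TTTTAT at 2 places. This hexamer is the DNA spelling of the cytoplasmic polyadenylation element, at which stored oocyte mRNAs are given longer poly(A) tails during maturation. The second copy is followed directly by the polyadenylation signal AATAAA. The GGACT nearest the stop codon and both TTTTAT copies are shown, with the motif in capitals.
Bub1b, coding sequence, base 3130: tcttctgggatGGACTcctctggaaac
Bub1b, 3′UTR, base 3610: ctcttttgtaaTTTTATaacatgtactc
Bub1b, 3′UTR, base 3642: ttcactgtgtaTTTTATaataaaatagt

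**Figure D1:**
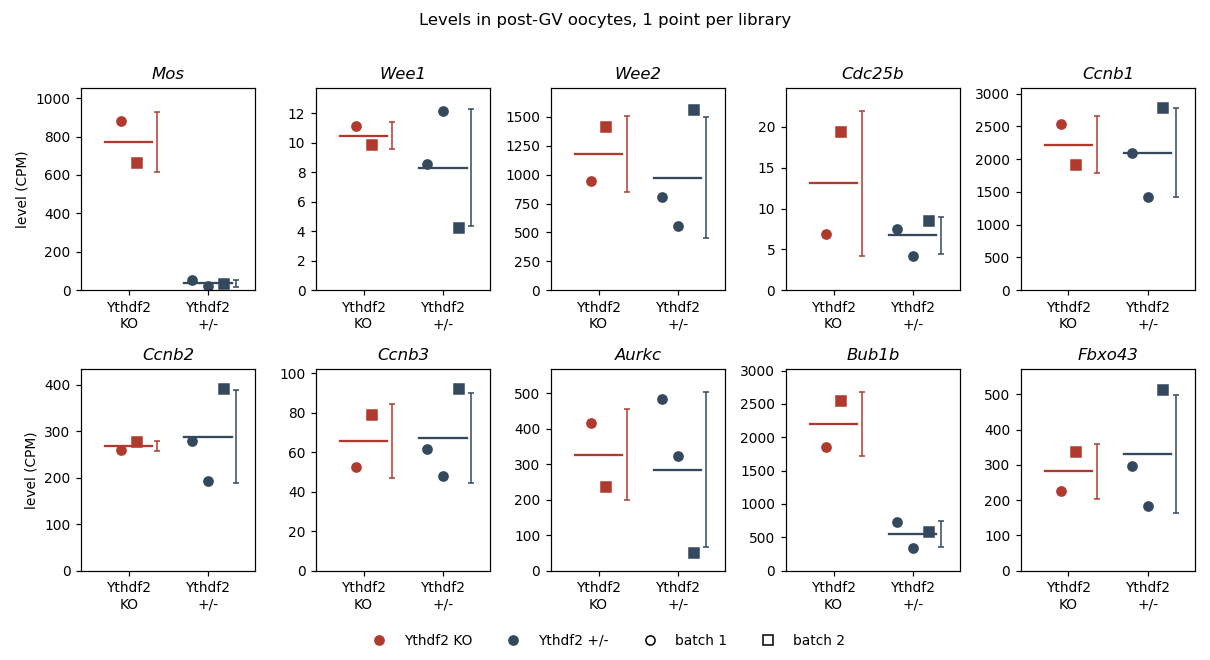
Level in CPM of each of the 10 genes in each post-GV library, Ythdf2-/- (KO) left of Ythdf2+/-. Circles are batch 1 and squares batch 2, horizontal lines are group means and bars the standard deviation. Mos and Bub1b are the genes whose groups do not overlap, with Mos at 882 and 661 CPM in KO libraries and at most 55.0 CPM in Ythdf2+/- libraries.

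The Cdk1 regulators were not called in Ythdf2-/- oocytes. Wee1, a kinase that inhibits Cdk1 in most cells, stood at 11.1 and 9.85 CPM in Ythdf2-/- against 8.57, 12.1 and 4.22 CPM in Ythdf2+/- libraries (0.59 ± 0.51, adjusted p = 0.600 by edgeR). Wee2, its oocyte-specific relative, stood at 948 and 1411 CPM in Ythdf2-/- against 804, 557 and 1562 CPM in Ythdf2+/- libraries (0.22 ± 0.32, adjusted p = 0.790 by edgeR). Cdc25b, the phosphatase that mouse oocytes need to resume meiosis, stood at 6.82 and 19.4 CPM in Ythdf2-/- against 7.44, 4.16 and 8.50 CPM in Ythdf2+/- libraries (0.65 ± 0.51, adjusted p = 0.558 by edgeR). In each of these the ranges of the genotypes overlapped.

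The cyclins were not called either. Ccnb1, the main mitotic B-type cyclin, stood at 2529 and 1910 CPM in Ythdf2-/- against 2099, 1414 and 2783 CPM in Ythdf2+/- libraries (0.08 ± 0.35, adjusted p = 0.934 by edgeR). Its sign was positive within batch 1 (0.55) and negative within batch 2 (-0.54). Ccnb2, which can stand in for cyclin B1 in mouse oocytes, had 260 and 276 CPM in Ythdf2-/- against 279, 193 and 392 CPM in Ythdf2+/- libraries (-0.13 ± 0.32, adjusted p = 0.881 by edgeR). Ccnb3, needed for anaphase of the first meiotic division, had 52.6 and 79.1 CPM in Ythdf2-/- against 61.7, 47.8 and 92.3 CPM in Ythdf2+/- libraries (-0.13 ± 0.34, adjusted p = 0.896 by edgeR). The ranges of the genotypes overlapped for all 3 cyclins and for Fbxo43, the APC/C inhibitor also known as Emi2. Fbxo43 had 227 and 336 CPM in Ythdf2-/- against 296, 184 and 512 CPM in Ythdf2+/- libraries (-0.30 ± 0.32, adjusted p = 0.684 by edgeR).

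Aurkc, the germ cell aurora kinase of the chromosomal passenger complex, had the widest spread. It stood at 417 and 236 CPM in Ythdf2-/- libraries against 483, 322 and 49.0 CPM in Ythdf2+/- libraries, where heterozygous library 3 was far below all others. The fitted change was 1.04 ± 0.51 (adjusted p = 0.348 by edgeR), with a log2 ratio of 0.08 in batch 1 and 2.25 in batch 2. Without KO library 1, which leaves the batch 2 pair alone to carry the genotype difference, Aurkc was called (2.26, adjusted p = 0.00313 by edgeR).

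In Mettl3 cKO GV oocytes 5 of the 10 genes were called, and neither Mos nor Bub1b was among them. Wee1 and Cdc25b, enzymes that act on the same phosphates of Cdk1 in opposite directions, both rose, by 2.98-fold and 1.94-fold. Aurkc, Fbxo43 and Wee2 fell, to 0.447, 0.495 and 0.663 of the control level. Many genes moved in this comparison: 28.8% of 13551 tested genes were called, 15.4% higher and 13.4% lower. The libraries of 7 of the 10 genes did not overlap between genotypes, against 39.3% of all tested genes.

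Wee1 stood at 129, 172 and 219 CPM in Mettl3 cKO libraries against 39.4, 50.9, 76.9 and 65.5 CPM in controls. Each knockout library lay above each control, the lowest 1.68-fold above the highest control. The change was 1.57 ± 0.28 (adjusted p = 0.00334 by edgeR), and 1.61 without controls 2 and 3 (adjusted p = 0.0111 by edgeR). Wee1 was called in each of 13 alternative fits, with changes from 1.27 to 1.66.

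The Wee1 gene (chr7:110122046-110143286, plus strand) has GGACT at 2 places of its 3′UTR, the most of the 10 genes, with 1 more in the coding sequence. The 3′UTR copies are shown with the pentamer in capitals.
Wee1, 3′UTR, 350 bases after the stop codon: acctctagaaaGGACTcaagggcttta
Wee1, 3′UTR, 690 bases after the stop codon: tctttttctttGGACTttgaagctact

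Cdc25b stood at 137, 123 and 131 CPM in Mettl3 cKO libraries against 60.8, 76.3, 54.3 and 78.0 CPM in controls, again with no overlap. The change was 0.96 ± 0.20 (adjusted p = 0.0076 by edgeR), and 0.80 without controls 2 and 3 (adjusted p = 0.0468 by edgeR). All 13 alternative fits called it. The end of the Cdc25b gene shares 92 exonic bases with Spef1 on the opposite strand, and the files do not say whether the counting used strand. Spef1 averaged 3.05 CPM in Mettl3 cKO and 1.01 CPM in control libraries.

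Wee2 moved the other way from Wee1. It stood at 472, 516 and 454 CPM in Mettl3 cKO libraries against 908, 718, 583 and 689 CPM in controls, without overlap. Its change of -0.59 ± 0.20 only just passed the threshold (adjusted p = 0.0466 by edgeR). The call was lost with no filter on low counts (adjusted p = 0.0564 by edgeR) and on leaving out any of the 3 Mettl3 cKO libraries or control 1, 2 or 4, with adjusted p from 0.0558 to 0.100. Without controls 2 and 3 together it was -0.84 (adjusted p = 0.0235 by edgeR).

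Aurkc stood at 46.2, 59.8 and 67.4 CPM in Mettl3 cKO libraries against 163, 126, 96.3 and 131 CPM in controls. Every knockout library was below every control, and the change was -1.16 ± 0.24 (adjusted p = 0.00718 by edgeR), or -1.46 without controls 2 and 3 (adjusted p = 0.00597 by edgeR). Fbxo43 stood at 61.4, 68.5 and 90.3 CPM in Mettl3 cKO libraries against 172, 151, 127 and 142 CPM in controls. Its groups did not overlap either, and the change was -1.02 ± 0.21 (adjusted p = 0.0076 by edgeR), or -1.21 without controls 2 and 3 (adjusted p = 0.0115 by edgeR). Both genes were called in each of 13 alternative fits. Aurkc carries GGACT at 3 places of its coding sequence, and Fbxo43 has 6 copies of TTTTAT in its 3′UTR, the most of the 10 genes. The Aurkc site nearest the stop codon and the first Fbxo43 hexamer after its stop codon are shown with the motif in capitals.
Aurkc, coding sequence, base 897: gcaggagcccaGGACTtgatctccaag
Fbxo43, 3′UTR, 173 bases after the stop codon: ttttgaaagaaTTTTATtttactatgtc

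Ccnb2 and Ccnb3 lay lower in every Mettl3 cKO library than in any control but were not called. Ccnb2 had 183, 196 and 92.1 CPM in Mettl3 cKO against 309, 272, 196 and 252 CPM in control libraries (-0.71 ± 0.28, adjusted p = 0.0848 by edgeR). The highest knockout and the lowest control library of Ccnb2 were almost level. Ccnb3 had 24.1, 47.4 and 35.6 CPM in Mettl3 cKO against 52.6, 75.9, 53.5 and 61.1 CPM in control libraries (-0.77 ± 0.28, adjusted p = 0.0615 by edgeR). Of 13 alternative fits, 3 called Ccnb2 and 5 called Ccnb3, DESeq2 being among both (adjusted p = 0.0331 and 0.0163). In simulated counts for this comparison DESeq2 made 46 false calls, against 7 by edgeR.

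Ccnb1 had 2823, 1853 and 1404 CPM in Mettl3 cKO against 2536, 2014, 1411 and 1699 CPM in control libraries (0.08 ± 0.28, adjusted p = 0.846 by edgeR), and the sign of this small difference turned with the scaling. Bub1b had 1008, 760 and 803 CPM in Mettl3 cKO against 985, 1065, 802 and 925 CPM in control libraries (-0.14 ± 0.19, adjusted p = 0.600 by edgeR). Mos had 731, 646 and 581 CPM in Mettl3 cKO against 642, 362, 316 and 503 CPM in control libraries (0.52 ± 0.25, adjusted p = 0.150 by edgeR). The libraries of all 3 genes overlapped between genotypes. Controls 2 and 3 were the low Mos libraries, and without them the Mos difference was 0.08 (adjusted p = 0.826 by edgeR). Without control 1 it was 0.73 and called (adjusted p = 0.0337 by edgeR). In the authors' deposited table none of the 10 genes had an adjusted p under 0.05 in GV oocytes, the lowest being 0.474 for Wee1. Those deposited adjusted values are not the Benjamini-Hochberg adjustment of the p-values beside them, which for Wee1 would be 2.99e-05, and how they were made is not stated. The DESeq2 refit gave Wee1 a change of 1.49 (adjusted p = 2.05e-05).

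**Figure D2:**
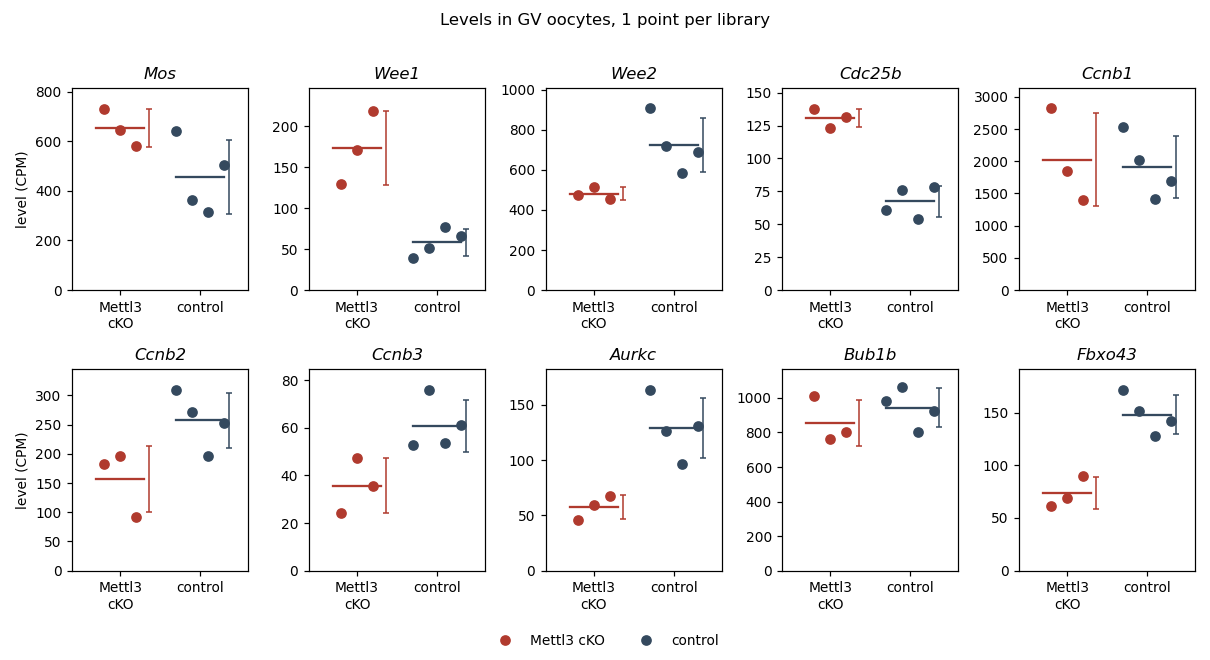
Level in CPM of each of the 10 genes in each GV library, Mettl3 cKO left of control. Horizontal lines are group means and bars the standard deviation (3 and 4 libraries). Wee1 and Cdc25b libraries lie higher in Mettl3 cKO, and Wee2, Aurkc, Fbxo43, Ccnb2 and Ccnb3 lower, without overlap. Of these, Ccnb2 and Ccnb3 were not called.

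**Figure D3:**
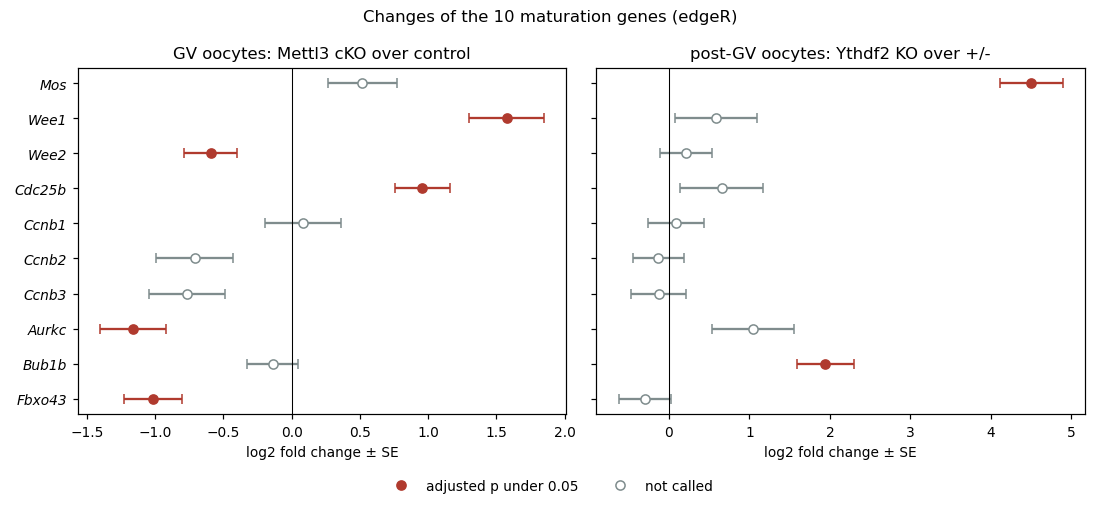
Log2 fold change ± standard error of the 10 genes in Mettl3 cKO over control GV oocytes (left) and in Ythdf2-/- (KO) over Ythdf2+/- post-GV oocytes (right), with separate scales. Filled points are called by edgeR. The genes called on the left are Wee1, Cdc25b, Wee2, Aurkc and Fbxo43, and those called on the right are Mos (4.50) and Bub1b (1.94).

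The levels differed widely between genes and stages. Per kilobase of annotated exon, the order in control GV oocytes began with Ccnb1 at 454 ± 114, Mos at 314 ± 102, Wee2 at 231 ± 43.1, Bub1b at 221 ± 25.9 and Ccnb2 at 168 ± 30.8 CPM per kb (SD, n = 4). Within these 5, each gene overlapped with the next in the order. Aurkc at 84.8 ± 18.0 and Fbxo43 at 36.7 ± 4.58 CPM per kb stood clear of their neighbours. Cdc25b at 18.1 ± 3.13, Wee1 at 17.0 ± 4.80 and Ccnb3 at 13.3 ± 2.36 CPM per kb overlapped in turn. In Mettl3 cKO GV oocytes the order began with Ccnb1 at 481 ± 172 and Mos at 450 ± 52.0 CPM per kb, and Wee1 stood behind 5 other genes at 50.7 ± 13.1 CPM per kb (SD, n = 3).

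In Ythdf2-/- post-GV oocytes Mos came first at 532 ± 108 CPM per kb, level with Ccnb1 at 526 ± 104 and Bub1b at 514 ± 114 CPM per kb (SD, n = 2). In Ythdf2+/- post-GV oocytes Ccnb1 came first at 498 ± 162 CPM per kb, Bub1b stood behind 4 other genes at 129 ± 44.9 and Mos behind 6 at 24.5 ± 11.9 CPM per kb (SD, n = 3). The GV and post-GV tables were scaled apart and come from different strain crosses, so their levels are set side by side without a test. The Mos levels of Ythdf2-/- post-GV oocytes, 882 and 661 CPM, lay at or above those of control GV oocytes, 316 to 642 CPM. The Mos levels of Ythdf2+/- post-GV oocytes were below all of these. Wee1 and Cdc25b were low in both post-GV genotypes, at 4.22 to 12.1 and 4.16 to 19.4 CPM, against 39.4 to 76.9 and 54.3 to 78.0 CPM in control GV oocytes. Bub1b in Ythdf2-/- post-GV oocytes, at 1855 and 2543 CPM, was above its control GV range of 802 to 1065 CPM.

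**Figure D4:**
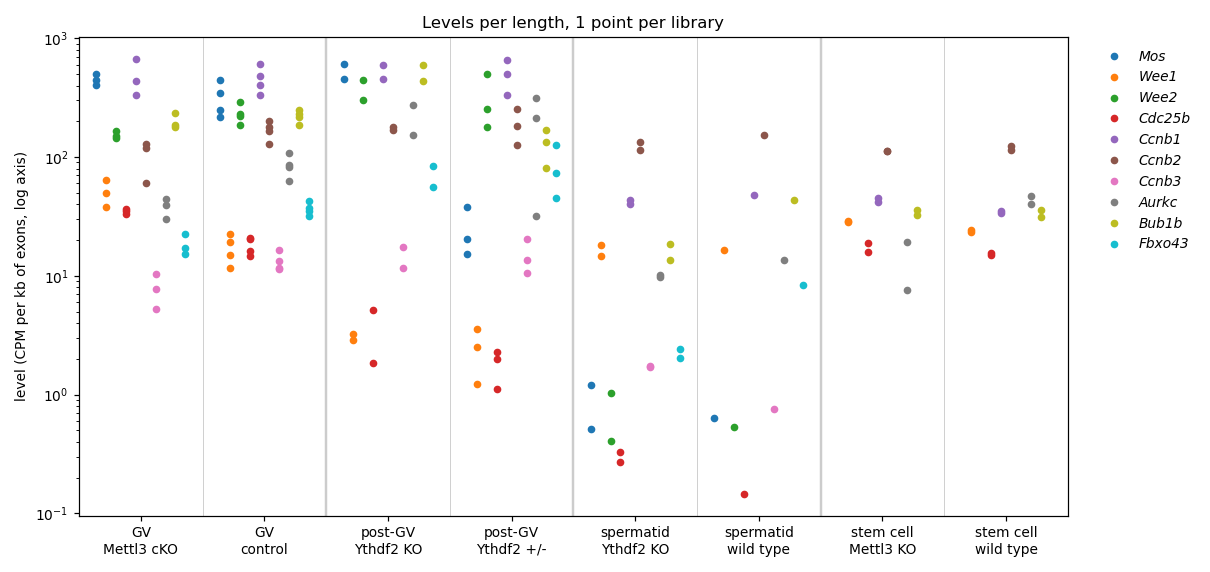
Level in CPM per kb of annotated exon (log axis) of the 10 genes in GV oocytes, post-GV oocytes, round spermatids and stem cells, 1 point per library, each knockout left of its comparison group. Mos lies at 15.2 to 37.9 CPM per kb in Ythdf2+/- post-GV oocytes and above 200 in every other oocyte group. Genes the stem cell table does not list have no point there.

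In round spermatids, haploid male germ cells, there was 1 wild-type library and thus no test. Bub1b stood at 78.8 and 58.3 CPM in the Ythdf2-/- libraries and at 185 CPM in the Ythdf2+/+ library. Fbxo43 stood at 9.73 and 8.20 CPM in Ythdf2-/- libraries and at 34.0 CPM in the Ythdf2+/+ library. These were the members with the largest differences, both lower in Ythdf2-/- libraries, and the authors' deposited table gives them log2 changes of -1.47 and -1.96. The spread between Ythdf2+/+ samples cannot be measured from 1 library. Spermatocyte markers summed to between 1894 and 2396 CPM in Ythdf2-/- libraries and to 2768 CPM in the Ythdf2+/+ library. Round spermatid markers summed to between 8913 and 13261 CPM in Ythdf2-/- libraries and to 7704 CPM in the Ythdf2+/+ library. Their part in the result was not tested. Aurkc had 15.3 and 14.8 CPM in Ythdf2-/- libraries and 20.8 CPM in the Ythdf2+/+ library, and Ccnb3 had 7.93 and 7.76 CPM in Ythdf2-/- libraries and 3.45 CPM in the Ythdf2+/+ library. Ccnb1, Ccnb2 and Wee1 were expressed at 50.6 CPM or more in each of the 3 libraries. Mos, Wee2 and Cdc25b were at 3.25 CPM or below in each spermatid library.

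In stem cells the 6 listed genes were Ccnb1, Ccnb2, Wee1, Bub1b, Aurkc and Cdc25b, and the other 4 are not listed, where the table holds genes that reached 6 counts in some library. The 2 libraries of each stem cell group differed by no more than counting error (chi-square per gene 0.689 to 0.835), so each pair counts as 1 sample and no test was made. Aurkc varied most. It stood at 11.5 and 29.3 CPM in Mettl3-/- cells (7 and 25 counts), and at 142 and 137 CPM in cells lacking all 3 Ythdf genes. Ythdf3-/- cells had 127 and 121 CPM, Ythdf2-/- cells 95.7 and 94.3 CPM, Ythdf1-/- cells 116 and 79.8 CPM, and wild-type cells 72.1 and 61.5 CPM. Mettl3-/- cells were thus below, and each Ythdf knockout above, both wild-type libraries. The authors' deposited table gives Aurkc a log2 change of -1.63 for Mettl3-/- over wild type (adjusted p = 0.000235) and of -1.06 for wild type over triple knockout (adjusted p = 0.00259), the second with wild type on top. With wild type on top it also gives -0.89 for Ythdf3-/- (adjusted p = 0.0209), -0.55 for Ythdf1-/- (adjusted p = 0.419) and -0.51 for Ythdf2-/- cells (adjusted p = 0.429), the last 2 above the threshold. These comparisons share the wild-type libraries. Their p-values take the 2 libraries of a pair as replicates, so they measure counting error and not the spread between independent samples. Over all 12 stem cell libraries Ccnb1 ran from 143 to 226 CPM, Ccnb2 from 171 to 239 CPM, Bub1b from 130 to 174 CPM, Wee1 from 68.9 to 106 CPM and Cdc25b from 45.5 to 70.3 CPM.

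The partners of these genes were read from 5 lists of the maturation pathway, 60 genes in all, of which 59 were tested. In Ythdf2-/- post-GV oocytes 0 of the 59 were called higher and 1 lower, beside 1.38% and 0.474% of all tested genes. The called gene was Rps6ka2, a ribosomal S6 kinase below MAP kinase, at 10.9 and 0.543 CPM in Ythdf2-/- against 27.0, 56.2 and 4.73 CPM in Ythdf2+/- libraries (-2.31 ± 0.53, adjusted p = 0.0348 by edgeR). Its libraries overlapped between genotypes, and the call was lost without KO 2 (adjusted p = 0.0836), heterozygous 2 (adjusted p = 0.165) or heterozygous 3 (adjusted p = 0.0843, all by edgeR). It was highest where the granulosa marker sum was highest, a link that was not tested. The list medians were -0.18 for Cdk1 and its regulators, 0.15 for the APC/C with its activators and substrates, 0.14 for the spindle checkpoint and passenger complex, 0.07 for the MAP kinase cascade below Mos and 0.09 for the cyclic AMP arrest genes, beside -0.03 over all genes. Apart from Rps6ka2, the genes named here that act with the 2 called members were not called. The MAP kinase kinases that Mos phosphorylates are Map2k2 (-0.72 ± 0.49, adjusted p = 0.493 by edgeR) and Map2k1, named after its values were seen (0.07 ± 0.31, adjusted p = 0.939 by edgeR). Mapk3, the ERK1 kinase that they activate, was at 46.6 CPM in Ythdf2-/- and 21.4 CPM in Ythdf2+/- oocytes on average (1.33 ± 0.43, adjusted p = 0.127 by edgeR). Bub1, the checkpoint kinase related to Bub1b, averaged 60.7 CPM in Ythdf2-/- and 38.1 CPM in Ythdf2+/- oocytes (0.64 ± 0.36, adjusted p = 0.389 by edgeR). Cdc26, an APC/C subunit, came closest to the threshold after Rps6ka2, with 72.4 CPM in Ythdf2-/- and 30.9 CPM in Ythdf2+/- oocytes on average (1.37 ± 0.35, adjusted p = 0.0584 by edgeR).

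In Mettl3 cKO GV oocytes 5 of the 59 genes rose and 6 fell, beside 15.4% and 13.4% of all tested genes. Ube2c, the ubiquitin-conjugating enzyme of the APC/C, stood at 485, 577 and 429 CPM in Mettl3 cKO against 291, 242, 273 and 254 CPM in control libraries (0.91 ± 0.18, adjusted p = 0.00558 by edgeR). Anapc10, an APC/C subunit (0.95 ± 0.26), and Fbxo5, the Emi1 inhibitor of that complex and a relative of Fbxo43 (0.69 ± 0.18), rose too, whereas the subunit gene Anapc16 fell (-0.82 ± 0.20). Among Cdk1 partners Cks1b, a small Cdk-binding protein, had 142, 180 and 127 CPM in Mettl3 cKO against 280, 448, 316 and 233 CPM in control libraries (-1.09 ± 0.26, adjusted p = 0.0125 by edgeR). Arpp19, an inhibitor of the phosphatase that opposes Cdk1, fell as well (-0.80 ± 0.20, adjusted p = 0.0143 by edgeR). Of 12 tested checkpoint and passenger genes Zwint, a kinetochore protein, rose (0.55 ± 0.18, adjusted p = 0.0496 by edgeR) and none fell. Zwint was not called with RLE scaling (adjusted p = 0.0783), no filter (adjusted p = 0.0582) or the 5 CPM filter (adjusted p = 0.0569, all by edgeR).

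The cyclic AMP list moved in both directions. Gnas, the stimulatory G protein that holds cyclic AMP high in arrested oocytes, stood at 470, 495 and 611 CPM in Mettl3 cKO against 171, 240, 396 and 262 CPM in control libraries (0.97 ± 0.27, adjusted p = 0.0248 by edgeR). Adcy9, an adenylyl cyclase, fell to a mean of 12.7 CPM in Mettl3 cKO, against 25.5 CPM in control libraries (adjusted p = 0.0241 by edgeR), and Prkar2b, a regulatory subunit of protein kinase A, fell as well (-1.58 ± 0.52, adjusted p = 0.0463 by edgeR). Prkar2b had 35.8, 99.1 and 68.0 CPM in Mettl3 cKO against 87.4, 212, 383 and 125 CPM in control libraries, highest in control 3. Rps6ka2 had 0.615, 3.28 and 0.601 CPM in Mettl3 cKO against 4.93, 14.6, 26.7 and 4.02 CPM in control libraries (-3.01 ± 0.87, adjusted p = 0.0294 by edgeR), also highest in control 3, which had the highest granulosa sum. The part of granulosa RNA in either value was not tested. Without controls 2 and 3 neither was called, Prkar2b at -0.77 (adjusted p = 0.187) and Rps6ka2 at -1.65 (adjusted p = 0.146, both by edgeR). Without these controls Anapc10, Fbxo5, Zwint and Adcy9 were not called either (adjusted p = 0.0699, 0.157, 0.132 and 0.0673 by edgeR), and the calls of all of these and of Gnas were also lost on leaving out single libraries. List medians lay between -0.13 and 0.15, beside 0.04 over all genes.

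**Figure D5:**
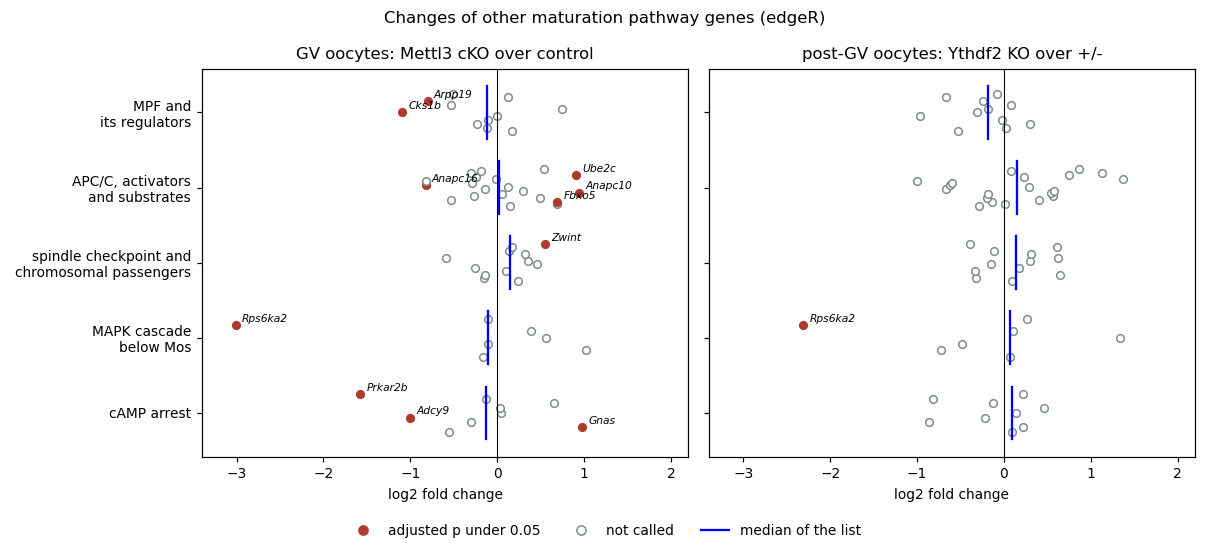
Log2 fold change of each tested gene of 5 maturation pathway lists, in Mettl3 cKO over control GV oocytes (left) and in Ythdf2-/- (KO) over Ythdf2+/- post-GV oocytes (right). Filled, named points are called by edgeR and blue lines are list medians. Of 59 genes 11 are called on the left and 1, Rps6ka2, on the right.

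Genes with the most similar course were sought over the 12 oocyte libraries, as the smallest root-mean-square (RMS) difference of centred log2(CPM + 0.5) among 6751 genes. These libraries include those compared above, so the likeness is a description. Fbxo43 had the closest neighbours, Helq, a DNA repair helicase, at 0.13 and Ccdc79 at 0.15, against a median of 1.17 over all genes. Bub1b was nearest to Npc1, the lysosomal cholesterol transporter (0.26), and Xrcc2, a homologous recombination factor (0.27), with a median of 0.94. This distance grows with the range of a gene's own profile. The genes nearest to Mos were Serpini1, a protease inhibitor (0.61), and H2afx, a histone H2A variant (0.66), with a median of 1.84. Serpini1 stood at 110 CPM in Ythdf2-/- and 15.1 CPM in Ythdf2+/- post-GV oocytes on average (log2 change 2.78 ± 0.39), a difference that the choice by likeness to Mos largely fixes. Aurkc was nearest to Gstp1 (0.63) and Emb (0.65), with a median of 1.39. Wee1 was nearest to Zfand3 (0.40) and Nck1 (0.47), and Cdc25b to Pdzk1 (0.28) and Ccno (0.29). The nearest neighbours of Ccnb1, Ccnb2 and Wee2 were Racgap1 (0.18), Memo1 (0.15) and Armc10 (0.17).

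In sequence the 10 genes were mixed. Their representative GENCODE transcripts ran from 1154 to 4554 bases, and their 3′UTRs from 126 bases in Mos to 1584 bases in Fbxo43. GGACT occurred in the transcripts of 10 of 10, as in 92.0% of 13555 tested genes with a transcript, and its density ran from 0.402 per kb in Ccnb1 to 2.60 per kb in Aurkc, around the median of 1.05 per kb over all genes. It lay in the 3′UTR of 4 of 10 (58.7% of all genes) and within 200 bases of the stop codon in 3 of 10 (38.8% of all). TTTTAT was in the 3′UTR of 7 of 10 (54.0% of all), missing from Mos, Wee1 and Cdc25b, and TTTTAAT in 2 of 10 (29.6% of all). AATAAA was in the last 50 bases of 7 of 10 transcripts (63.8% of all). Motifs were counted on the transcript strand, and no match says only that these letters are not in the window read. RefSeq promoter sequences (GRCm38.p6) were matched for 7 of the 10 genes. CCAAT, read on both strands, was in 6 of these 7 promoters (37.4% of 32851 promoters), and CACGTG was in 0 of 7 (7.15%). Ccnb1, with the highest level of the 10 in most oocyte groups, carries 3 TTTTAT copies and 1 TTTTAAT copy in its 3′UTR. The pair of TTTTAT copies that lie closest together is shown, with the hexamer in capitals.
Ccnb1, 3′UTR, 577 bases after the stop codon: caaggagatatTTTTATatgggttcatt
Ccnb1, 3′UTR, 592 bases after the stop codon: atatgggttcaTTTTATcaacagtattc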

How the data were processed

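RNA was measured by sequencing in 27 mouse libraries. Raw read counts per gene were deposited by the authors, and CASAVA 1.8.2, cutadapt, STAR 2.4.2a, DESeq2 and mm10 are named per the submitters' processing notes. For the counter, annotation, strand setting and duplicate treatment nothing is stated. Besides counts, the deposited files hold a normalized signal (counts divided by 1 size factor per library), log2 values (regularized or batch-adjusted, and fold changes), and p-values, all made by the authors. Each table lists genes that reach 6 counts in a library, and 0 per-sample columns were unmatched.

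From the counts, edgeR 4.0.16 (limma 3.58.1, R 4.3.3) gave TMM-scaled CPM and quasi-likelihood tests with robust dispersion after filterByExpr, with Benjamini-Hochberg adjustment over all 13551 (GV) or 13910 (post-GV) tested genes. The post-GV fit had a batch term. The batches were read from the authors' adjustment, the difference between their batch-adjusted log2 values and the log2 of their normalized counts. Between libraries this difference correlated at 0.857 to 0.975 within and -0.966 to -0.926 across batches. SMART-seq2 copies RNA from the poly(A) tail, so tail length, not measured here, could affect counts. Within a group, p-values measure the spread between mice. Alternatives were RLE scaling, no filter, a filter of 5 CPM, DESeq2 1.42.0, a replicate block, batch settings and libraries left out. The scripts were tested on simulated counts with 200 changed genes, in equal shares 2-fold and 4-fold. The edgeR fits found 12 (GV) and 9 (post-GV) of the 2-fold changes, and 92 and 81 of the 4-fold ones. They made 7 and 5 false calls. DESeq2 found 28 and 21 of the 2-fold and 99 and 90 of the 4-fold changes, with 46 and 24 false calls. The simulation held no batch effect and changed far fewer genes than were called in GV oocytes. Its counts therefore do not carry over to the reported fits. A gene that was not called is still not shown to be unchanged. Spermatids and stem cells were not tested.

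Named genes are the 10 members, Mettl3, Ythdf2, up to 4 genes of smallest p per pathway list, and the 2 nearest profiles of each member (mean log2 CPM of 4 or more). Members and lists were chosen with earlier results of these data known. Motifs were read from GENCODE M21 transcripts (GRCm38), 1 per gene, and promoters (250 bases before to 50 after a start) from RefSeq. The nearest profile of 1 member is not reported here.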

Additional observations from a re-analysis of the deposited data

Results flagged for a closer look

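Bub1b moved in opposite directions in Ythdf2-/- oocytes and Ythdf2-/- spermatids. The log2 ratio of mean CPM was 2.00 for Ythdf2-/- over Ythdf2+/- post-GV oocytes and -1.43 for Ythdf2-/- over Ythdf2+/+ round spermatids, with every knockout library on its side of the comparison libraries. Aurkc had a ratio of -0.47 for Ythdf2-/- over Ythdf2+/+ round spermatids and 0.51 for Ythdf2-/- over wild-type stem cells. In the authors' deposited table the stem cell difference had an adjusted p of 0.429 and the spermatid one 0.773. Neither difference between cell types was tested, since the spermatids have 1 wild-type library and each stem cell pair counts as 1 sample. The comparison genotype is heterozygous in oocytes and wild type in the others, and library preparation differed too, so these cannot be told apart from cell type.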

How the results depend on the processing

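Among the called genes, Wee1, Cdc25b, Aurkc and Fbxo43 were called in all 13 GV alternatives and Wee2 in 6. Mos and Bub1b were called in 10 of 12 post-GV alternatives, and lost with no batch term and with the replicate block without it (Mos 4.45, adjusted p = 0.0903 by edgeR; Bub1b 2.12, adjusted p = 0.723 by edgeR). Those 10 alternatives are not independent. The fits of the first batch alone, without KO 2 and without heterozygous 3 all rest on KO 1 against heterozygous 1 and 2. The fit without KO 1 rests on the batch 2 pair. The replicate block raised the members called in GV oocytes to 8. Same-numbered GV libraries deviated together at r of 0.455, 0.0956 and 0.261, and those of unlike number at -0.394 to 0.116. Mettl3 cKO 2 correlated slightly better with control 3 (0.116) than with its own number. The numbers were not taken as pairs, but pairing of the GV libraries is not excluded. Same-numbered post-GV libraries stood at 0.455 and -0.628. There the 2 knockout libraries deviate as mirror images, so these values say nothing about GV oocytes. Post-GV genes called, 258 in the reported fit, were 108 with RLE scaling, 452 with no filter, 150 with the 5 CPM filter, 714 with DESeq2 and 519 in the first batch alone. With no batch term 0 genes and 0 members were called by edgeR (782 genes at unadjusted p under 0.05), and with the replicate block and no batch term 3 genes and 0 members. DESeq2 called 50.7% of its post-GV genes higher, against 74.4% in the reported fit, and RLE scaling moved the median of all post-GV genes to -0.12, against -0.03. Leaving out 1 library gave 2274 to 4214 called genes and 4 to 7 members in GV oocytes, and 86 to 896 genes and 2 to 3 members in post-GV oocytes. Genes that were not called changed sign, and the cause was not tested. Ccnb1 in GV oocytes was -0.0031 with RLE scaling and with DESeq2, -0.17 without controls 2 and 3 and -0.30 to 0.25 with 1 library left out, and in post-GV oocytes -0.0028 with RLE scaling and with DESeq2 and -0.54 to 0.53 with 1 left out. Rps6ka1 was -0.13 without GV controls 2 and 3. In the first batch alone Ccnb2 was 0.12, Mettl3 0.19, Cdk1 0.10 and Mad2l1 0.057. With the replicate block and no batch term Ccnb2 was 0.21, Ccnb3 0.25, Fbxo43 0.24, Aurkc -0.33, Mettl3 0.11 and Mad2l1 0.064. With 1 post-GV library left out Wee2 ran from -0.15 to 0.48, Ccnb2 from -0.51 to 0.14, Prkar2b from -0.047 to 0.42, Mettl3 from -0.87 to 0.21, Cdk1 from -1.67 to 0.12, Cks1b from -0.78 to 0.016 and Mad2l1 from -0.88 to 0.077. The lone sample of a left-out arm is assumed to vary like the others. Whether depth limited the members in oocytes was not tested. The lowest value there was Cdc25b in heterozygous library 2, at 4.16 CPM (61 counts). The 7 and 25 Aurkc counts in Mettl3-/- stem cells do limit that value.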
